A study of Mus musculus with 12 samples.

Results

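The public alpha CDR3s described here are amino acid sequences of the third complementarity-determining region (CDR3) of the T cell receptor alpha chain (TRAC) that were listed with at least 1 unique molecular index (UMI, a tag that counts an original cDNA molecule) in all 4 spleen libraries and all 4 libraries of the tumor-draining lymph node (tdLN). They were chosen by this listing alone. The rule selected 3430 of the 135080 alpha CDR3s listed in any of these 8 libraries, or 2.54%. C57BL/6J mice bearing the head and neck squamous carcinoma line MTCQ1-2, which stems from tongue carcinogenesis, received control IgG, IL-10-Fc (interleukin-10 fused to an Fc), αCSF1R (an antibody that blocks the receptor of colony-stimulating factor 1, on which macrophages depend) or BF10 (a fusion of that antibody with IL-10). Per the labels all mice were wild type and received 30 mg/kg in 3 doses at 3-day intervals, whereas the study's methods give agent-specific doses, and the mice were 6 to 8 weeks old per those methods. CD8 T cells were taken with magnetic beads from tumor, spleen and tdLN, and their RNA was sequenced in 12 libraries, 1 for each treatment and tissue, each of RNA mixed from 3 mice. Hence no treatment had a replicate within a tissue, no test between treatments was possible, and the intervals below cover counting error only. The sources used here do not state whether the 3 tissues of a treatment came from the same mice. Each tissue has its own deposited file, in which the sample numbers restart, so tissue cannot be told apart from file.

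An alpha chain is made when a Trav segment is joined to a Traj segment on chromosome 14, with bases trimmed from the ends and others added without a template at the junction. The CDR3 spans this junction and touches the peptide held by an MHC molecule. The same amino acid sequence can arise in many animals when it needs few added bases or when many nucleotide sequences encode it, and such shared sequences are called public. The alpha chain of invariant NKT cells, which see lipids on CD1d, and that of MAIT cells, which see vitamin B metabolites on MR1, are the best known examples. The sample titles name CD8 for the tumor and spleen libraries only, and for the tdLN the study's text gives it. Only receptor chains were sequenced, so that the CD8 selection could not be checked against other genes. Gamma and delta chains, which mark another T cell lineage, held 0.677% to 8.93% of the receptor UMIs of a library.

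The nucleotide sequences show how a public alpha CDR3 was built. The one with the highest mean share, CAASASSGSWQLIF (14 residues), was encoded by 50 nucleotide forms in the 8 libraries, the most of any public alpha CDR3. Its 4 most abundant forms are shown because they held 90.5% of its UMIs. Capitals mark bases that matched neither the germline Trav of the assigned family, read from the 5′ end, nor the assigned Traj, read from the 3′ end (GENCODE M21, GRCm38).
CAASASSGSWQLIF form 1: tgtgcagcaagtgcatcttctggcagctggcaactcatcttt
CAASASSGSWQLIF form 2: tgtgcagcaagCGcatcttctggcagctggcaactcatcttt
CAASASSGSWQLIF form 3: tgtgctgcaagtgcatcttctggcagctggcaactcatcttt
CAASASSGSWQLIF form 4: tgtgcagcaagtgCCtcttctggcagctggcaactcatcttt
Form 1 was the junction of 13 bases of a Trav14 gene with 29 bases of Traj22 (chr14:54197248-54197307, plus strand, mm10) and had no base left over. It held 77.5% of the UMIs of this CDR3. Form 3 was the same kind of junction made with a Trav5 gene, again with 0 unmatched bases, and held 2.67%. Forms 2 and 4 each carried 2 unmatched bases and held 7.81% and 2.48%. The 4 forms differed at bases 6, 12 and 15, and each of them was listed in all 8 libraries.

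The next by mean share was the 15-residue chain of Trav11 and Traj18, the combination of invariant NKT cells. Its 4 leading forms are shown because they held 97.7% of its UMIs and differed at base 12 only, the third base of the 4th codon, a glycine.
Trav11–Traj18 form 1: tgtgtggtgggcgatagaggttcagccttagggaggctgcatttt
Trav11–Traj18 form 2: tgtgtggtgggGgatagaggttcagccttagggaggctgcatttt
Trav11–Traj18 form 3: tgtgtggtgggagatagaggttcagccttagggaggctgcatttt
Trav11–Traj18 form 4: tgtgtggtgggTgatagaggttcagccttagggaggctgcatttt
The forms held 41.8%, 26.6%, 17.7% and 11.6% of the UMIs of this chain. Forms 1 and 3 were accounted for by the germline segments, and forms 2 and 4 had 1 unmatched base each. The 4 forms spell the 4 codons of glycine, so 4 different junctions gave the same protein sequence.

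Beyond these examples, public alpha CDR3s were encoded by many nucleotide forms. A public alpha CDR3 had a median of 8 forms (quartiles 6 and 12) over the 8 libraries, and 8 of the 3430 had 1 form. CDR3s listed in 7 of the 8 libraries had a median of 6 forms, and those listed in 1 library had a median of 1. More UMIs give more chances to list a form, and the median number of UMIs summed over the 8 libraries was 59 for public alpha CDR3s, 27 for those in 7 libraries and 1 for those in 1 library. The comparison was therefore repeated at 20 UMIs per CDR3. Among 20 UMIs, the expected number of forms had a median of 6.0 over the 3359 public alpha CDR3s with at least 20 UMIs, against 5.50 over 1860 CDR3s of 7 libraries, 4.96 over 1204 of 6 libraries, 4.24 over 628 of 4 to 5 libraries and 1.97 over 152 of 1 to 3 libraries. At like depth, the number of forms still rose with the number of libraries, but the step from 7 to 8 libraries was small. The classes were set by the listing itself, so that CDR3s of few libraries drew their UMIs from few pools of mice. The rise is therefore in part given by how the classes were made.

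Many public alpha CDR3s were listed in all 8 libraries as proteins but not in any of their nucleotide forms. Their median was 59 UMIs over the 8 libraries, and 1377 had 1 UMI in at least 1 of them. A form can thus be missed in a library, or another form can lead there, by sampling alone. The counts that follow were not corrected for this. For 2233 of the 3430, none of their nucleotide forms was listed in all 8 libraries, and for 426 none was listed in more than 4. A form listed in all 8 libraries was found for 1197 (34.9%). The same form led in all 8 libraries for 243 (7.08%), and 2545 had 3 or more different leading forms over the libraries. The leading form held a median of 42.0% of a public alpha CDR3's UMIs. Their V calls also differed: 3037 (88.5%) were assigned to 2 or more Trav families, with a median of 4 and a maximum of 14. By contrast, 10 were assigned to more than 1 Traj. A family was counted from 1 UMI, so that a wrong V call can add a family. The same counts are not given for other CDR3s, and public alpha CDR3s had more UMIs than those of fewer libraries. The Traj, which supplies most residues of these CDR3s, was thus nearly always fixed in these calls and the Trav family was not. Leaving out the first 3 residues, 2079 (60.6%) shared the whole rest of their CDR3 with another public alpha CDR3. This was counted within the public set only, so it cannot be set against other CDR3s. The most widely used end, DTNAYKVIF of Traj30, was found in 17 of them and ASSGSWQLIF of Traj22 in 11.

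Public alpha CDR3s lay close to the germline. The leading form had a median of 1 unmatched base (quartiles 0 and 3, mean 1.62), against 2 (mean 2.05) for CDR3s of 7 libraries and 5 (mean 6.02) for CDR3s of 1 library. No base was left over in the leading form of 30.9% of public alpha CDR3s, 18.5% of those in 7 libraries and 1.18% of those in 1 library. At least 6 bases were left over in 1.28% of public alpha CDR3s and in 42.6% of CDR3s of 1 library. With at least 20 UMIs required, the mean number of unmatched bases was 1.61 for public alpha CDR3s, 1.97 for those in 7 libraries and 4.14 for those in 1 to 3. The count is not an exact number of added bases. An added base can match the germline by accident, which lowers it. A read error or a wrong V call near an end leaves the bases after it unmatched, which raises it.

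**Figure D1:**
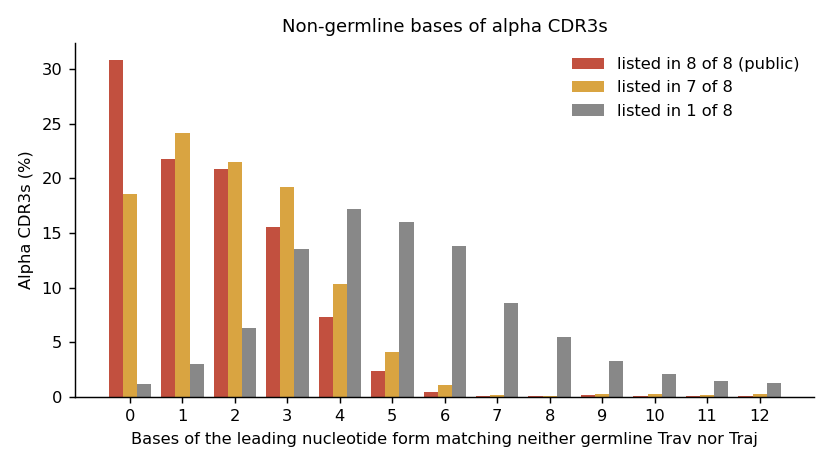
Number of bases of the leading nucleotide form that matched neither germline Trav nor Traj (horizontal axis) and the percentage of alpha CDR3s with that number (vertical axis), for CDR3s listed in 8, 7 or 1 of the 8 spleen and tdLN libraries. Public alpha CDR3s peak at 0 bases (30.9%), whereas CDR3s of 1 library have a median of 5. Numbers above 12 are not drawn.

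They were also shorter. Public alpha CDR3s had 9 to 17 residues with a mean of 13.30 and a median of 13, whereas CDR3s of 7 libraries had a mean of 13.42 and CDR3s of 1 library had a mean of 14.02 and a median of 14. Lengths of 12, 13 and 14 residues made up 17.2%, 31.1% and 33.9% of public alpha CDR3s. A length of 16 or more was found in 2.30% of public alpha CDR3s and in 17.6% of CDR3s of 1 library, and 11 or fewer residues were found in 5.92% and 7.12%. The difference was also seen with the Traj held fixed. Within each of the 37 Traj segments with at least 20 public alpha CDR3s, these were shorter on average than CDR3s of 1 library with the same Traj, with differences in mean length between -1.13 and -0.20 residues, and had fewer unmatched bases in 37 of 37. All 3430 began with cysteine, 3306 ended in phenylalanine and 124 in tryptophan, the conserved residues that bound a CDR3. None held an undetermined residue or a stop, whereas 233 of the 135080 did.

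Public alpha CDR3s resembled each other. A neighbour differing at 1 residue was present among the other public alpha CDR3s for 95.6% of them. The same was true for 88.6% of CDR3s of 7 libraries, 56.9% of CDR3s of 3 libraries and 20.7% of CDR3s of 1 library, each against the public alpha CDR3s. The start CAA was carried by 40.2% of public alpha CDR3s and by 24.7% of all alpha CDR3s of the 8 libraries, whereas CAL was carried by 24.0% and 25.4%.

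A few Trav families made up most of the set. Each CDR3 was given the family with the most UMIs over the 8 libraries. Trav14 led with 840 public alpha CDR3s (24.5%), against 10.1% of all alpha CDR3s of the 8 libraries, a ratio of 2.41. Trav7 had 638 (18.6% against 13.3%) and Trav12 had 600 (17.5% against 11.5%). Trav6 had 232 and was less frequent than among all CDR3s (6.76% against 13.4%). Trav3 had 198 (5.77% against 5.23%). The lowest ratios among families with at least 1% of either set were those of Trav15 (0.0499), Trav21 (0.0574) and Trav5 (0.0981), with 3, 3 and 10 public alpha CDR3s. Put otherwise, 6.13% of all Trav14 CDR3s were public, against 0.249% of those of Trav5. A Trav5 junction that encodes the same residues as a more abundant Trav14 one, as in form 3 above, is counted under Trav14.

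The Traj segments most frequent among public alpha CDR3s were few. Traj22 had the most, 258 (7.52% against 4.09% of all), followed by Traj31 with 237 (6.91% against 4.83%) and Traj30 with 201 (5.86% against 4.01%). Traj23 and Traj26 had 193 each (5.63%, against 4.29% and 3.85%). The highest ratios were those of Traj22 (1.84), Traj12 (1.68) and Traj30 (1.46). The lowest among Traj with at least 1% of either set were those of Traj2 (0.137, 5 public alpha CDR3s), Traj58 (0.370, 18) and Traj57 (0.372, 22). Traj57 (chr14:54158505-54158569) and Traj58 (chr14:54157280-54157342) lie at the end of the Traj cluster nearest to the Trav genes, and Traj2 (chr14:54217836-54217901) lies at the other end, near the constant region. The 14 Traj with a ratio over 1 were numbered between 9 and 49, but other segments of that stretch were low, with 0.106 for Traj35 (3 public alpha CDR3s and under 1% of either set), 0.460 for Traj38, 0.648 for Traj24, 0.668 for Traj48 and 0.694 for Traj39. Germline length went the same way: of the 18 Traj that bring at most 29 bases to the CDR3, 12 had a ratio over 1 (median ratio 1.12), against 2 of the 23 that bring 30 or more (median 0.681). Position and length were not separated, and their part in the shares was not tested.

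**Figure D2:**
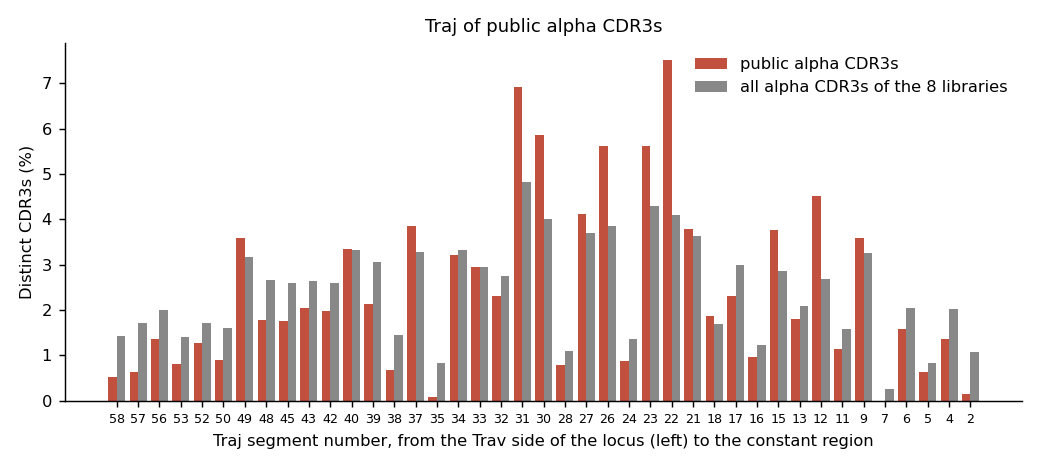
Percentage of distinct CDR3s with each Traj (vertical axis) among the public alpha CDR3s (red) and among all alpha CDR3s of the 8 spleen and tdLN libraries (grey), in the order of the locus from the Trav side. Traj22, Traj31 and Traj30 have the tallest red bars, whereas Traj57, Traj58 and Traj2 at the ends, and Traj35, Traj38 and Traj39 between them, are less frequent in the public set than among all.

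Public alpha CDR3s held about the same share of molecules in every spleen and tdLN library. Their share of TRAC UMIs was 36.7% in control IgG, 36.2% in IL-10-Fc, 38.0% in αCSF1R and 35.3% in BF10 spleen, and 36.9%, 36.4%, 37.4% and 37.1% in the tdLN libraries in the same order. The widest Wilson 95% interval was that of the BF10 tdLN, from 36.7% to 37.5%, for 55901 to 137078 TRAC UMIs per library. The share of a library does not depend on its own listing, because a CDR3 missing from it adds no UMI to it, so each value rests on the choice made in the other 7. By the same rule, 3139 of 427397 beta chain CDR3s (0.734%) were listed in all 8 libraries and held 14.4% of the TRBC UMIs of the 8, against 36.7% for alpha. Alpha and beta were not set to equal UMIs, and listing in all 8 libraries depends on depth.

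The tumor libraries did not enter the rule. Public alpha CDR3s held 30.1% of the 79926 TRAC UMIs of the control IgG tumor (interval 29.8% to 30.4%), 36.5% of the 98821 of IL-10-Fc (36.2% to 36.8%), 39.4% of the 23650 of αCSF1R (38.8% to 40.02%) and 35.0% of the 117661 of BF10 (34.7% to 35.3%). The IL-10-Fc tumor thus lay within the range of spleen and tdLN, BF10 just below it, control IgG further below it and αCSF1R above it. This placement depended on the reads required of a UMI: with at least 7 reads, where 371 CDR3s were public, the αCSF1R tumor was the lowest at 5.53%, control IgG had 7.77%, BF10 10.01% and IL-10-Fc 11.4%, beside a median of 11.01% in spleen and tdLN. The control IgG and αCSF1R tumors were also those with large clonotypes. Clonotypes of at least 0.1% of the TRAC UMIs (a clonotype being 1 row of V, J and nucleotide sequence) held 38.9% of the UMIs of the control IgG tumor and 52.3% of those of αCSF1R, against 4.38% in IL-10-Fc and 0.377% in BF10. These clonotypes are called expanded by this share alone, and each spleen and tdLN library had 3 to 6 of them. Expanded clonotypes of public alpha CDR3s held 8.96% of all TRAC UMIs in the control IgG and 24.0% in the αCSF1R tumor. Without expanded clonotypes, the share of public alpha CDR3s was 34.6% in control IgG, 35.4% in IL-10-Fc, 32.3% in αCSF1R and 34.8% in BF10. The difference between control IgG and αCSF1R then changed direction. This alternative was chosen after seeing the data. In the αCSF1R tumor, 5 public alpha CDR3s held 50% of the UMIs of all public alpha CDR3s, against 109 in the control IgG, 435 in the IL-10-Fc and 547 in the BF10 tumor, and 497 to 584 in the spleen and tdLN libraries.

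**Figure D3:**
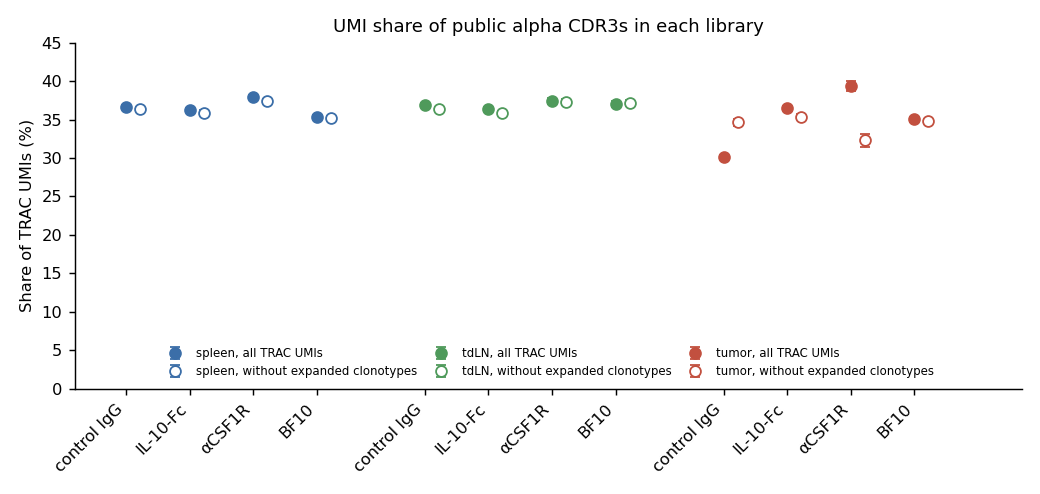
Share of TRAC UMIs held by public alpha CDR3s (vertical axis, %) in the 12 libraries (1 library each), with Wilson 95% intervals. Filled circles use all UMIs and open circles leave out clonotypes of at least 0.1% of TRAC UMIs: the control IgG tumor moves from 30.1% to 34.6% and the αCSF1R tumor from 39.4% to 32.3%, whereas the spleen and tdLN libraries stay between 35.2% and 38.0%.

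How many public alpha CDR3s could be found in the tumors depended on the tumor library. As listed, 1599 (46.6%) were found in the control IgG, 3046 (88.8%) in the IL-10-Fc, 535 (15.6%) in the αCSF1R and 3236 (94.3%) in the BF10 tumor. The background, the share of all 135080 alpha CDR3s of spleen and tdLN listed in that tumor, was 3.92%, 12.7%, 1.07% and 16.5%. At equal depth, the 23650 UMIs of the αCSF1R tumor, the expected number was 1301 (37.9%) in control IgG, 2355 (68.6%) in IL-10-Fc, 535 (15.6%) in αCSF1R and 2477 (72.2%) in BF10, over a background of 2.96%, 6.87%, 1.07% and 7.66%. For comparison, at 23650 UMIs the spleen libraries listed 75.6% to 76.6% and the tdLN libraries 74.6% to 80.04%, but their listing was used by the rule. The order of the tumors was the same with and without the correction for depth. Equal UMIs even out molecules and not cells, and the sources used here do not give the number of cells per library. Differences in sampled cells were thus not corrected for. All 12 libraries listed 336 public alpha CDR3s, 57 were listed in none of the tumor libraries, and 1423 were listed in 2 of them, the most frequent number.

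The tumors differed less in the make-up of what they listed. At 23650 UMIs, the control IgG, IL-10-Fc, αCSF1R, then BF10 tumors listed 5343, 12639, 2074 and 14216 distinct alpha CDR3s. Of these, 24.3%, 18.6%, 25.8% and 17.4% were public, beside 17.9% to 19.98% in spleen and tdLN. With the expanded clonotypes left out and every library set to 11285 UMIs, public alpha CDR3s made up 25.2%, 23.0%, 25.6% and 22.3% of the distinct alpha CDR3s of the 4 tumors and 22.8% to 24.7% of those in spleen and tdLN. The number found still differed, with 1202 in the control IgG, 1778 in the IL-10-Fc, 524 in the αCSF1R and 1826 in the BF10 tumor.

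Listing in the tumors rose with the number of spleen and tdLN libraries that listed a CDR3. At 23650 UMIs, 0.606% of the CDR3s of 1 library, 17.96% of those of 7 libraries and 37.9% of the public ones were listed in the control IgG tumor. In the BF10 tumor the values were 1.82%, 47.8% and 72.2%. CDR3s of more libraries also had more UMIs. Within the band of 30 to 49 UMIs summed over the 8 libraries, which held 941 public alpha CDR3s and 797 CDR3s of 7 libraries, 23.6% against 21.1% were listed in control IgG, 54.7% against 50.3% in IL-10-Fc, 7.76% against 8.03% in αCSF1R and 58.1% against 54.9% in BF10. From 20 to 29 UMIs (356 and 820 CDR3s) the values were 19.3% against 15.996%, 43.0% against 39.2%, 4.21% against 5.73% and 46.5% against 42.7% in the same order. From 50 to 99 UMIs (1234 and 231 CDR3s) they were 37.6% against 26.9%, 72.6% against 60.2%, 14.6% against 10.4% and 77.9% against 70.3%. Public alpha CDR3s were thus listed more often in the control IgG, IL-10-Fc and BF10 tumors in all 3 bands, and in the αCSF1R tumor in the highest band only. Within a band they may still have had more UMIs, and no test was made.

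**Figure D4:**
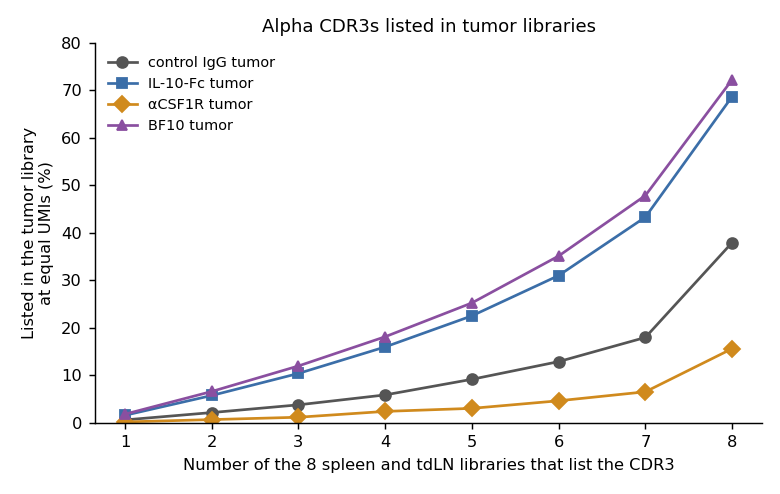
Percentage of alpha CDR3s listed in each tumor library at 23650 UMIs (vertical axis), by the number of the 8 spleen and tdLN libraries that list them (horizontal axis). All 4 lines rise from under 2% at 1 library to 15.6% in the αCSF1R, 37.9% in the control IgG, 68.6% in the IL-10-Fc and 72.2% in the BF10 tumor at 8 libraries.

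The 10 public alpha CDR3s with the highest mean share over the 8 libraries were led by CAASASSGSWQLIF, made mostly from Trav14 (92.8% of its UMIs) and Traj22. It held 0.741%, 0.799%, 0.740% and 0.530% of the TRAC UMIs in control IgG, IL-10-Fc, αCSF1R, then BF10 spleen and 0.422%, 0.461%, 0.414% and 0.436% in the tdLN libraries in this order. In the tumors its share was 0.389%, 0.717%, 0.283% and 0.637%. All 4 spleen values were above all 4 tdLN values. Of the 9 others, 1 was the Trav11–Traj18 chain described next, 3 were also of Traj22, and the rest were of Traj9, Traj43, Traj30, Traj13 and Traj23. The Traj22 chains were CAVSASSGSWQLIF of Trav3 with 0.120% to 0.200% in the 8 libraries, the 13-residue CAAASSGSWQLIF of Trav7 with 0.115% to 0.201%, and the 12-residue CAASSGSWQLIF of Trav14 with 0.0807% to 0.151%. The Trav7 and Traj9 chain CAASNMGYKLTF held 0.102% to 0.264%. These 4 kept within a factor of 3 over the 8 libraries. Among the 10, the leading form had 0 unmatched bases in all but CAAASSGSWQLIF (1) and the Trav12–Traj23 chain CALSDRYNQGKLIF (3). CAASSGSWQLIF was assigned to 13 Trav families and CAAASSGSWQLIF to 12. After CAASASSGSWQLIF with 50, the most nucleotide forms were found for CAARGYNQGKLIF of Traj23 (35). A Trav14 and Traj12 chain of 13 residues and the Traj22 chains of Trav3 and of 12 residues had 32 each.

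The 15-residue Trav11–Traj18 chain was abundant in spleen and node and scarce in the tumors. Its share was 0.502%, 0.0363%, 0.500% and 0.340% in the control IgG, IL-10-Fc, αCSF1R, then BF10 spleen and 0.450%, 0.313%, 0.307% and 0.279% in the tdLN. In the tumors 9, 18, 5 and 2 UMIs were listed, or 0.0113%, 0.0182%, 0.0211% and 0.00170%. The 7 highest values were thus spleen and tdLN libraries, the IL-10-Fc spleen stood apart with 44 UMIs, and all 4 tumors were lower than that. Another public alpha CDR3 had the same segments, and no other did. The only Trav1–Traj33 one, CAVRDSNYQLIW of 12 residues, carries the segments of MAIT cells. Trav1 gave 37.5% of its UMIs, and Trav7, Trav3 and Trav9 the rest. The shares of this CDR3 that follow count all these families, and shares for Trav1 alone are not given. They were 0.0148% to 0.0200% in the 4 spleen libraries and 0.00423% to 0.0238% in the tumors. In control IgG, IL-10-Fc, αCSF1R, then BF10 tdLN they were 0.120%, 0.0343%, 0.0167% and 0.0233%. The groups overlapped.

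For some public alpha CDR3s the spleen and node shares did not overlap, at rates not far from those over all alpha CDR3s. The rule did not use this difference. The 4 tdLN shares were all above the 4 spleen shares for 175 of the 3430, and the reverse held for 162. Among those with at least 20 UMIs this was 5.21% and 4.82%, beside a background of 4.1% and 4.29% over all 7203 alpha CDR3s with at least 20 UMIs, which include the public ones. The 3844 others gave 3.12% and 3.82%, and the 1860 of 7 libraries gave 2.96% and 3.33%. Public alpha CDR3s had more UMIs than these, and the shares rose with UMIs. Among the 828 with at least 100 UMIs they were 11.2% and 9.18%, beside 11.4% and 9.02% over all 843 CDR3s of that depth, nearly all of them public, so that no comparison with others was possible there. Compared within each treatment, tdLN was above spleen in 4 of 4 treatments for 373 public alpha CDR3s and below it for 401. With at least 20 UMIs this was 10.9% and 11.8%, beside a background of 9.43% and 10.6% over the 7203. The largest ratio of means among the 56 with at least 400 UMIs was that of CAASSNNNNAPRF (Trav10, Traj43), which held 0.437%, 0.291%, 0.224% and 0.0948% in control IgG, IL-10-Fc, αCSF1R, then BF10 tdLN, and 0.0148%, 0.0115%, 0.0173% and 0.00758% in spleen. It was 20.4 times higher in the mean of tdLN. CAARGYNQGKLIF (Traj23) held 0.208%, 0.220%, 0.140% and 0.161% in tdLN and 0.0243%, 0.00412%, 0.0346% and 0.0143% in spleen, a ratio of 9.42. At the other end, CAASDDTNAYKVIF (Traj30) held 0.0433% to 0.0474% in tdLN and 0.0835% to 0.121% in spleen. These were picked by size after their values were seen, and no test was made. None of the 16 forms of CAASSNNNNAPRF was listed in all 8 libraries.

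Some public alpha CDR3s held far more of a tumor library than of spleen and tdLN. The 5 with the highest ratio of mean tumor share to mean spleen and tdLN share were taken from the 336 listed in all 4 tumors, where the highest ratio was 78.7. Without that limit 2 others were higher. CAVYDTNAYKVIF (Traj30) had a ratio of 193 with 6.0% of the αCSF1R tumor, and a 16-residue Traj32 chain had a ratio of 113 with 1.66% of the control IgG tumor. Each of these 2 was missing from 1 tumor library, and both were named after their values were seen. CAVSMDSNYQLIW (Traj33) held 6.41% of the TRAC UMIs of the αCSF1R tumor, 0.0338%, 0.0850% and 0.0323% in the control IgG, IL-10-Fc and BF10 tumors, and 0.0161% to 0.0544% in the 8 spleen and tdLN libraries. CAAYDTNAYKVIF (Traj30) held 4.12% in the αCSF1R tumor, 0.0113% to 0.0152% in the other tumors and at most 0.0304% in spleen and tdLN. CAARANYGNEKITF (Traj48) held 0.693% in the control IgG tumor, 0.0102% to 0.0296% in the other tumors and at most 0.0191% in spleen and tdLN. Each was high in 1 tumor library, and the ratio that chose it was set there. The form that led in that tumor is printed with the form that led in spleen and tdLN, with capitals as above.
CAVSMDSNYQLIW in the αCSF1R tumor: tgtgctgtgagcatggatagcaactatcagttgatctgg
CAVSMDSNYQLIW in spleen and tdLN: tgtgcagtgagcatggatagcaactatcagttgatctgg
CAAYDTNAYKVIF in the αCSF1R tumor: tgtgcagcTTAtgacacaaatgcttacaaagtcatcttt
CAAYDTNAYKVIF in spleen and tdLN: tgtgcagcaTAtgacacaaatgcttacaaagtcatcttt
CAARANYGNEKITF in the control IgG tumor: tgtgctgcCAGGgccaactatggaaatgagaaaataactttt
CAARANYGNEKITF in spleen and tdLN: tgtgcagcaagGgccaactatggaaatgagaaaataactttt
The tumor form of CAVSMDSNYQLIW, assigned to a Trav9 gene, had 1499 of the 1515 UMIs of this CDR3 in that tumor and 73 in the 8 libraries, in all 8 of them, whereas the spleen and tdLN form of Trav7 had 143 there and 11 in that tumor. The forms differed at 1 base. The tumor form of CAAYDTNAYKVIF (Trav10) had 944 of 974 UMIs in the tumor and 27 in 6 of the 8 libraries. The spleen and tdLN form was not listed in that tumor. The tumor form of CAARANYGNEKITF (Trav5) had 550 of 554 UMIs, was listed in no spleen or tdLN library and in no other tumor, and differed from the spleen and tdLN form at 2 bases, with 4 unmatched bases against 1. The choice by tumor ratio favors CDR3s with a large clonotype in 1 tumor, so these forms are a description of the 3 and not of public alpha CDR3s in tumors.

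The other 2 of these 5 were 15-residue chains of Traj53. The first held 2.97% of the TRAC UMIs of the control IgG tumor, 0.168% in IL-10-Fc, 0.803% in αCSF1R and 0.0229% in BF10, and at most 0.0338% in spleen and tdLN. Its tumor form, of Trav5, had 2367, 151, 172 and 19 UMIs in the 4 tumors and 30 in the 8 libraries, where a Trav14 form led with 115. The second held 0.186% in control IgG, 0.0263% in IL-10-Fc, 0.334% in αCSF1R and 0.00340% in BF10, and its Trav5 form was listed in all 4 tumors, with 76 of 79 UMIs in αCSF1R and 51 of 149 in control IgG, where a Trav14 form had 94. Both Trav5 forms had 0 unmatched bases.

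A nucleotide form was called expanded by a share of at least 0.1% in its tumor, without comparison with spleen or tdLN. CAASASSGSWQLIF passed in all 4 tumors, with 0.283% to 0.717% there and 0.530% to 0.799% in spleen. V and J calls were disregarded. Public alpha CDR3s had 18 of 74 expanded forms (24.3%) in the control IgG and 9 of 20 (45%) in the IL-10-Fc tumor. They had 30 of 73 (41.1%) in the αCSF1R and 5 of 5 in the BF10 tumor. Of all distinct alpha CDR3s as listed there, 21.3%, 12.0%, 25.8% and 9.41% were public, in the same order. In the control IgG tumor, 5 of the 18 were the leading form of their CDR3 in spleen and tdLN and 1 was listed in none of the 8 libraries. In the αCSF1R tumor, 11 of the 30 were the leading form and 2 were listed in none. In the IL-10-Fc and BF10 tumors, 7 of 9 and 4 of 5 were the leading form. The IL-10-Fc tumor held 1 of the 10 with the highest mean share at a high level, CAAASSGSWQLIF (Traj22), with 2116 UMIs or 2.14%, against 0.115% to 0.201% in spleen and tdLN. The number of forms per listed public alpha CDR3 was 1.49 in the control IgG, 2.71 in the IL-10-Fc, 1.26 in the αCSF1R and 3.25 in the BF10 tumor, as listed at their unequal depth, and 2.66 to 3.58 in the spleen and tdLN libraries.

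**Figure D5:**
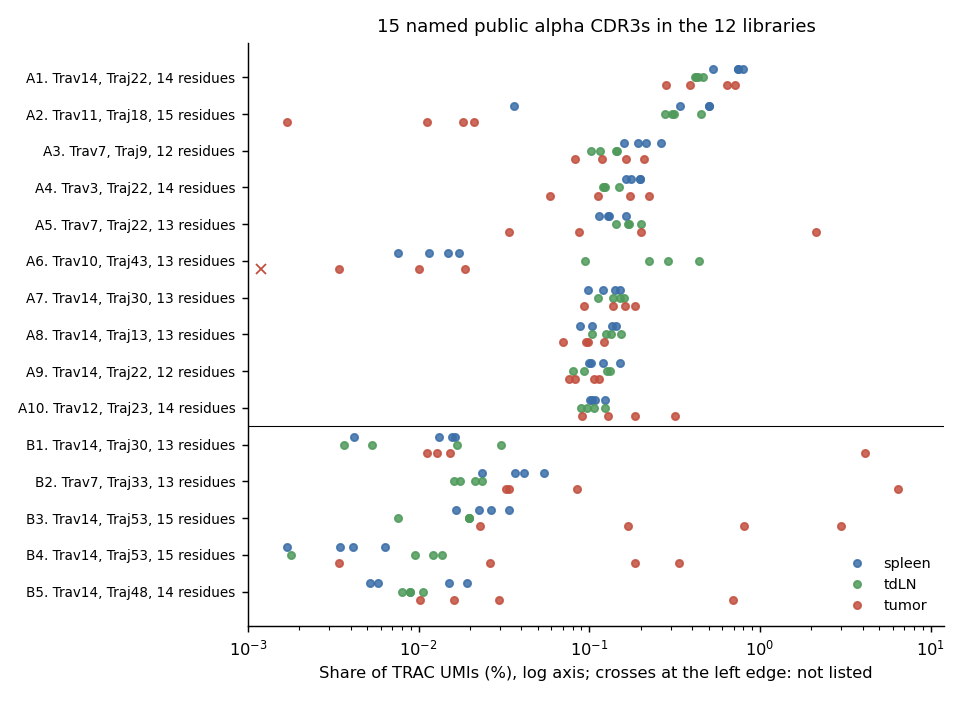
Share of TRAC UMIs (horizontal log axis, %) of 15 public alpha CDR3s, named by leading Trav family, Traj and length, in the 12 libraries (1 point a library, coloured by tissue). The upper 10 rows have the highest mean share over spleen and tdLN, among which the Trav11–Traj18 chain is low in all tumors and the Trav10–Traj43 one high in tdLN. The lower 5 rows have the highest ratio of tumor to spleen and tdLN among the 336 listed in all 4 tumors, each with 1 to 3 tumor libraries far to the right.

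At the edge of the rule, the public alpha CDR3s with the fewest UMIs over the 8 libraries were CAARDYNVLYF with 11, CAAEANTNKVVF with 12 and a 15-residue chain of Trav14 and Traj37 with 13, and each had 1 UMI in 5 or 6 of the 8 libraries. Just outside were a 17-residue chain of Trav16 and Traj42 with 216 UMIs, a 14-residue chain of Trav7 and Traj37 with 164 and a 13-residue chain of Trav7 and Traj15 with 157, each missing from 1 library. The first was missing from the αCSF1R tdLN, and the other 2 from the IL-10-Fc spleen. In all, 1377 public alpha CDR3s had 1 UMI in at least 1 of the 8 libraries. Listing in all 4 spleen libraries was found for 6082 CDR3s, of which 56.4% were public, and in all 4 tdLN libraries for 5339, of which 64.2% were.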

How the data were processed

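CD8 T cell RNA (100 ng per library) was made into UMI-tagged receptor libraries with a QIAseq kit and sequenced on a NextSeq. The authors analysed the reads in the kit's online portal (genome build mm10). The deposited tables list, per library, chain, V and J region, CDR3 nucleotide and amino acid sequence, and the counts of UMIs with at least 3 or at least 7 reads. The counts of at least 3 reads were used, with 23650 to 137078 TRAC UMIs per library, so that 3 UMIs are 0.00219% to 0.0127%. Analyses used Python 3.11.15 with pandas 2.3.3, numpy 2.4.6 and scipy 1.17.1. Equal depth was computed by hypergeometric rarefaction and intervals are Wilson 95%. Bases were matched to GENCODE M21 Trav and Traj. In simulated junctions of a random V with a random J sequence, without read errors, accidental matches hid a mean of 0.397 bases. In the data the best match within a Trav family was taken, so the number hidden there may differ. Named CDR3s were the 10 with the highest mean share over the 8 libraries, the 5 with most forms, the 5 with the highest tumor ratio among those in all 4 tumors, the leading Trav11–Traj18 and Trav1–Traj33 ones, and 3 on each side of the rule. Named segments were the 5 largest and the 3 with the highest and lowest ratio. CDR3s of 15 or more residues are named by V, J and length. The set, lists and rules were chosen with earlier results of these data known. Alternatives covered reads and UMIs required, chain definition, depth, merged forms and each library left out.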

Additional observations from a re-analysis of the deposited data

How the results depend on the processing

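The number of public alpha CDR3s was 371 with UMIs of at least 7 reads, 2053 with at least 2 UMIs per library and 961 with V, J and CDR3 defined together, was expected at 2312 with all 8 libraries at 55901 UMIs, and was 3579 to 3873 with 1 library left out. UMIs of at least 7 reads were 6.49% of those of at least 3 in the BF10 tdLN, 8.31% in the αCSF1R tdLN and up to 73.3% elsewhere. For the share of TRAC UMIs, in the order of the median of spleen and tdLN and then the control IgG, IL-10-Fc, αCSF1R, then BF10 tumors, the values were 11.01, 7.77, 11.4, 5.53 and 10.01% with at least 7 reads, 29.96, 23.6, 29.8, 35.8 and 28.3% with at least 2 UMIs and 8.24, 5.27, 9.85, 11.1 and 7.81% with V, J and CDR3. The αCSF1R tumor was above the control IgG one in the main setting and below it with at least 7 reads and without expanded clonotypes. In the latter the first 4 values were 36.4, 34.6, 35.4 and 32.3%. For the percentage listed at equal UMIs, in the order of the 4 tumors, they were 55.9, 83, 29.4 and 85.5% with at least 7 reads, 47.2, 78.5, 20.2 and 81.7% with at least 2 UMIs, 32.9, 61.4, 12.4 and 63.9% with V, J and CDR3, 27.1, 46.7, 13.9 and 48.9% with 2 UMIs required in the tumor, 28.4, 55.2, 11.3 and 59.2% for CDR3s chosen in spleen and 28.9, 55.6, 11.9 and 59% for those chosen in tdLN. As listed, control IgG, IL-10-Fc and BF10 gave 46.6, 88.8 and 94.3%, and without expanded clonotypes 35.1, 51.8 and 53.2%. With 1 library left out of the rule the ranges were 35.5% to 37.3% in control IgG, 65.6% to 67.8% in IL-10-Fc, 14.3% to 15.2% in αCSF1R and 69.4% to 71.3% in BF10. The 4 tumors kept their order in this percentage under each of these settings. The median number of forms was 6 with at least 2 UMIs per form and library and 9 with at least 7 reads, and stayed at 8 with near-identical forms merged. The difference in mean length from CDR3s of 1 library (-0.72 residues) was -0.85 with at least 7 reads, -0.77 with at least 2 UMIs, -0.43 with V, J and CDR3 and -0.78 weighted by UMIs. In the order of at least 7 reads, at least 2 UMIs and weighting by UMIs, Trav14 held 33.2%, 27.2% and 31.1% and Traj22 10.2%, 8.91% and 11.9%. Weighted by UMIs, all alpha CDR3s of the 8 libraries gave 18.8% for Trav14 and 7.09% for Traj22. Leading forms with no unmatched base made up 51.2% with at least 7 reads and 36.6% with at least 2 UMIs. The causes were not tested. Paired by treatment, tdLN was above spleen in all 4 treatments for 373 and below it for 401, against 175 and 162 without overlap between tissues, a stricter count. The paired count, alternatives without expanded clonotypes and those on unmatched bases were chosen after seeing the data. No replicate block could be fitted, with 1 library per treatment and tissue.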
